A study of Mus musculus with 12 samples.

Results

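Hepatic amino acid and one-carbon catabolism was followed through 36 genes, taken as a list of enzymes by gene symbol, of 31870 gene symbols on the array. The rule uses no measured value, but the list was drawn up with earlier results of these data known. All 36 genes had a probe, and each probe was well above background on all 12 arrays, so none of the 36 was lost to a filter on dim probes. The RNA came from whole livers of mice that lacked factor VII-activating protease (FSAP, encoded by Habp2) or of their wild-type (WT) littermates. The 4 groups were FSAP-deficient (FSAP-/-) mice with bile duct ligation (BDL), FSAP-deficient mice with a sham operation, WT (FSAP+/+) mice with BDL and WT mice with a sham operation, with 3 mice and 3 arrays in each. All mice came from heterozygous crosses, had been backcrossed to BALB/c up to generation F3, were between 20 and 30 weeks old, and gave their liver 2 weeks after surgery. The labels give 1 mouse per array and state neither their sex nor the part of Habp2 that was deleted. The study concerns FSAP in experimental liver fibrosis, and the comparisons here ask how the catabolic enzymes of hepatocytes stood after BDL and whether they differed between genotypes.

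Hepatocytes break down most surplus amino acids. Transaminases, dehydratases and lyases pass the nitrogen on towards urea, and oxidases and dehydrogenases turn the carbon skeletons into fuel or glucose. The methionine cycle supplies methyl groups, transsulfuration drains it towards cysteine, and the breakdown of choline, glycine, serine and histidine feeds carbon units to folate. Several of these enzymes are classic markers of the mature hepatocyte, and inherited loss of some of them, such as Fah, Hpd, Tat or Agxt, causes metabolic disease in humans.

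Levels below are log2 signals relative to the 75th percentile of the same array, and changes are differences between group means on that scale, given with the model standard error (SE) from limma. A gene is said to have risen or fallen where its Benjamini-Hochberg adjusted p over 19531 tested genes was below 0.05. Apart from the summed levels of marker lists, a probe's level was not set against that of another probe. Those sums add linear signals of different probes, so the brightest genes of a list weigh most in them. Habp2 on chromosome 19 stood at -7.18, -6.98 and -6.95 in FSAP-deficient BDL livers, -3.45, -6.74 and -6.72 in FSAP-deficient sham livers, 5.15, 5.03 and 4.97 in WT BDL livers and 5.37, 5.47 and 5.5 in WT sham livers. It was well above background on 1 of the 6 FSAP-deficient arrays, replicate 1 of the sham group, and was at least 1180-fold lower in FSAP-deficient than in WT livers after BDL. Y-linked Ddx3y and Eif2s3y were well above background on 3 arrays, which were FSAP-deficient BDL replicates 1 and 2 and FSAP-deficient sham replicate 1, and Xist was well above background on the other 9. No WT array had Y-linked signal, and FSAP-deficient sham replicate 1 also lay alone on its slide.

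After BDL 20 of the 36 catabolic genes fell in both genotypes. In FSAP-deficient livers 31 of 36 fell and 0 rose, with a median log2 change of -1.19, beside a median of -0.16 over all tested genes, of which 22.8% fell and 16.2% rose. At an unadjusted p under 0.05, 32 fell and again 0 rose, where 5642 of the 19531 tested genes fell and 3704 (19%) rose. In WT livers 20 of 36 fell and 1 rose, with a median of -0.86, beside a median of -0.03 over all tested genes, of which 17.7% fell and 15.2% rose. The 20 that fell in WT livers also fell in FSAP-deficient livers, where 13.5% of all tested genes fell in both. With quantile normalization, or with the authors' deposited values, 17 of the 36 fell in both, and fewer did with slide as a fixed block. Another 11 passed only in FSAP-deficient livers, namely Got2, Gpt, Tat, Hgd, Tdo2, Sds, Agxt2, Gldc, Ahcy, Cth and Bckdhb, and Gpt2, Kynu, Sdsl, Bhmt and Mat1a fell in neither. The largest fall seen in both genotypes was that of Agxt, which makes glycine from glyoxylate, and the single rise was that of Sdsl, a relative of serine dehydratase, in WT livers. With quantile normalization the split of falls to rises was 25 to 1 in FSAP-deficient livers and 18 to 4 in WT livers, with Bhmt rising in both and Sds and Mat1a in WT. Over all tested genes that split was 3932 to 3509 in FSAP-deficient livers and 3139 to 3160 in WT livers. Within the slide that held both surgeries of a genotype, the median was -1.21 in FSAP-deficient livers (1 sham array) and -0.75 in WT livers (1 BDL array). Fewer members, and fewer of all tested genes, fell there than in the fit without slides. In these fits the lone array of an arm is assumed to vary like the arrays of the other groups. Across the 36 genes the log2 changes of the 2 genotypes, from separate arrays scaled alike, had a Pearson r of 0.69, beside 0.81 over all tested genes. The change was lower in FSAP-deficient than in WT livers for 27 of the 36 and for 11207 of the 19531 tested genes. The median interaction was -0.29, and it was -0.10 without FSAP-deficient BDL replicate 3, -0.47 without FSAP-deficient BDL replicate 2 and -0.73 without the 3 arrays with Y-linked signal.

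**Figure D1:**
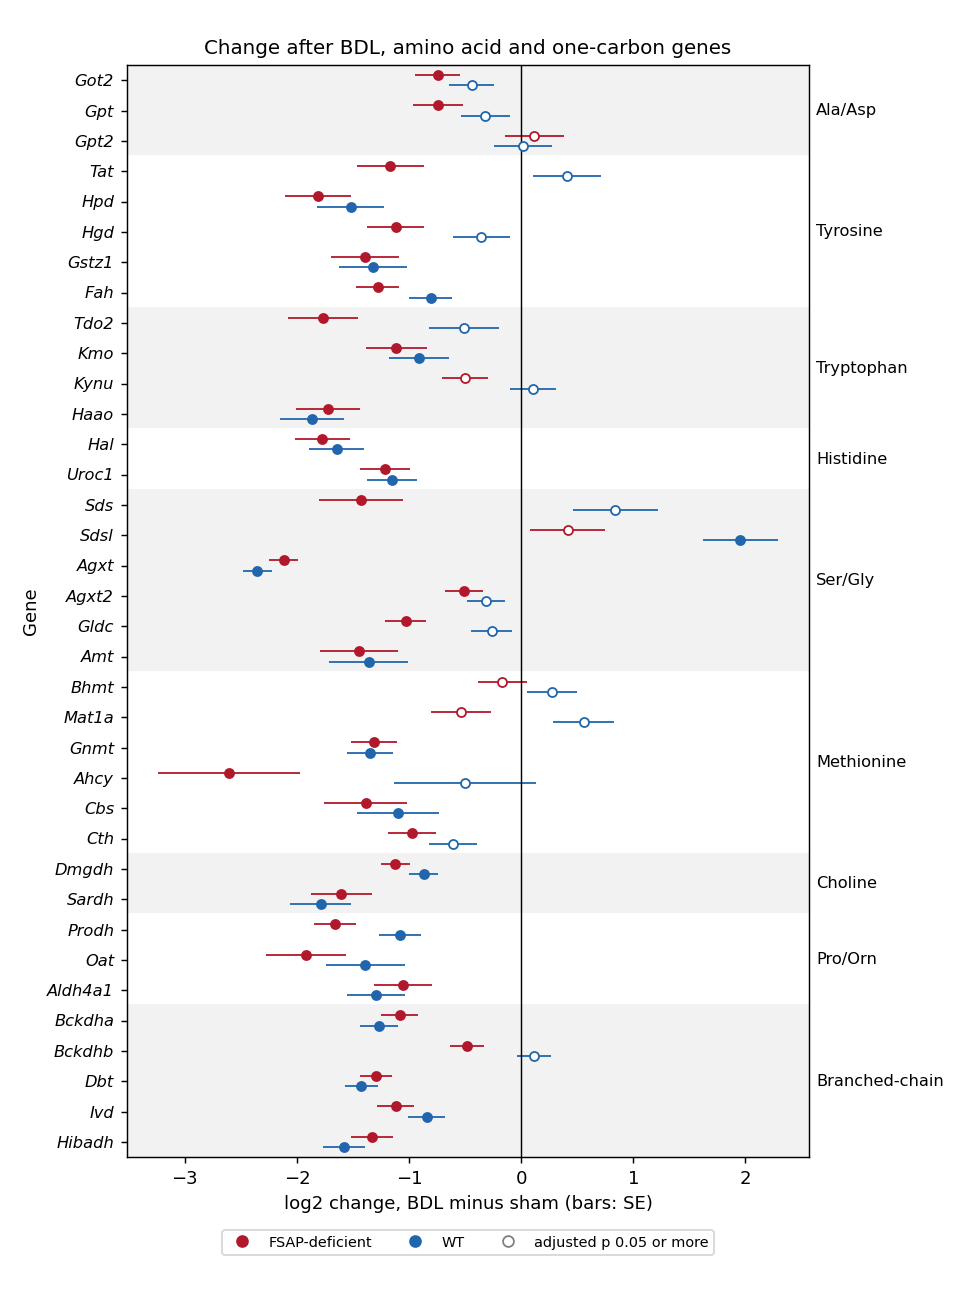
Log2 change after BDL (BDL minus sham) of the 36 genes, ordered by pathway from top to bottom, in FSAP-deficient livers (red) and WT livers (blue), with the SE as bars and open circles where the adjusted p was 0.05 or more. Points lie left of 0 for 34 genes in FSAP-deficient livers and for 28 in WT livers, and Sdsl in WT livers lies furthest to the right at 1.95.

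Whole liver was measured, so fewer hepatocytes and less RNA per hepatocyte cannot be told apart in any fall below. All 8 measured hepatocyte markers were well above background on every array, and none was at 0. Their summed level lay between 2136 and 2766 times the 75th percentile on FSAP-deficient BDL arrays and between 3220 and 3601 on FSAP-deficient sham arrays. It lay between 2216 and 4210 on WT BDL arrays and between 3052 and 3487 on WT sham arrays. Of the 8, 5 fell in FSAP-deficient livers (median -0.63) and 1 in WT livers (median -0.21), so the median of the 36 enzymes was lower than that of these secreted and nuclear markers in both genotypes. Markers of bile duct cells rose in 6 of 6 in both genotypes (summed level 10.3 to 42.2 on FSAP-deficient BDL arrays, 0.613 to 1.08 on FSAP-deficient sham arrays, 11.8 to 15.2 on WT BDL arrays and 0.914 to 0.997 on WT sham arrays). Macrophage markers rose in 6 of 6 in FSAP-deficient livers and in 5 of 6 in WT livers, with a summed level of 59.5 to 71.3 on FSAP-deficient BDL arrays, 19.7 to 28.0 on FSAP-deficient sham arrays, 46.2 to 62.5 on WT BDL arrays and 22.5 to 33.4 on WT sham arrays. Stellate cell and myofibroblast markers rose in 5 of 6 in FSAP-deficient and in 3 of 6 in WT livers, with a summed level of 38.5 to 136 on FSAP-deficient BDL arrays, 3.13 to 3.59 on FSAP-deficient sham arrays, 8.73 to 35.9 on WT BDL arrays and 3.57 to 4.48 on WT sham arrays. The part of these markers in the falls of the 36 genes was not tested.

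Tyrosine breakdown has 5 of the genes. All 5 fell in FSAP-deficient livers (median -1.28) and 3 in WT livers (median -0.81). Hpd, hydroxyphenylpyruvate dioxygenase (5:123622237-123624360, like all probe positions on mm9), stood at 4.96, 5.74 and 4.72 in FSAP-deficient BDL livers, 6.53, 7.36 and 6.96 in FSAP-deficient sham livers, 6.24, 5.69 and 5.43 in WT BDL livers and 7.36, 7.33 and 7.25 in WT sham livers. Both BDL groups lay below both sham groups. The log2 change was -1.81, SE 0.30, adjusted p = 0.000917 in FSAP-deficient livers and -1.52, SE 0.30, adjusted p = 0.00303 in WT livers. Gstz1, the maleylacetoacetate isomerase, fell by 1.39 in FSAP-deficient and 1.32 in WT livers, and Fah, which performs the last step, fell by 1.28 in FSAP-deficient and 0.81 in WT livers. Hgd, homogentisate dioxygenase, fell by 1.12 in FSAP-deficient livers and was at -0.36 (adjusted p = 0.313) in WT livers.

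Tat, tyrosine aminotransferase, carries out the first step and is a classic target of glucocorticoids in liver. It was picked out with Sds, Mat1a and Gldc after the values were seen, because their BDL groups lay apart between genotypes. Its levels were 4.52, 5.30 and 4.30 in FSAP-deficient BDL livers, 6.14, 5.62 and 5.86 in FSAP-deficient sham livers, 6.48, 6.07 and 5.61 in WT BDL livers and 5.70, 5.29 and 5.93 in WT sham livers. The 3 FSAP-deficient BDL arrays lay below all 9 others except that the highest of them, at 5.30, was just above WT sham replicate 2. Tat fell in FSAP-deficient livers (log2 change -1.17, SE 0.30, adjusted p = 0.0112) and did not pass in WT livers (0.41, SE 0.30, adjusted p = 0.328). Its RefSeq promoter, shown because Tat was the tyrosine gene with a positive value in WT livers, holds none of the 5 motifs searched. The search ran from 250 bases before to 50 after the transcript start, so it could not find sites farther away. The promoter covers chr8:109990186-109990485 on the plus strand of GRCm38.p6:
Tat: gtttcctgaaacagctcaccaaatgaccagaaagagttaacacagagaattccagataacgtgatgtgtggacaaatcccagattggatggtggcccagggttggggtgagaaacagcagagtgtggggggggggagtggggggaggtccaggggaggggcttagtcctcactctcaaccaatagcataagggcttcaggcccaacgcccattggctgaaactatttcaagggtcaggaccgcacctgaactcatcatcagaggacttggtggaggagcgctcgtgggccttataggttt

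The kynurenine route of tryptophan breakdown was represented by 4 genes, of which 3 fell in FSAP-deficient livers (median -1.42) and 2 in WT livers (median -0.71). Haao, the hydroxyanthranilate dioxygenase that leads towards NAD (17:84230696-84230755), stood at 4.74, 5.08 and 3.89 in FSAP-deficient BDL livers, 6.18, 6.33 and 6.36 in FSAP-deficient sham livers, 5.05, 4.66 and 4.28 in WT BDL livers and 6.45, 6.71 and 6.42 in WT sham livers. The BDL and sham groups did not overlap, and the 2 genotypes overlapped after BDL. Haao had a log2 change of -1.72, SE 0.28, adjusted p = 0.000927 in FSAP-deficient livers and of -1.86, SE 0.28, adjusted p = 0.00072 in WT livers. Tdo2, tryptophan dioxygenase and the entry to the route, fell by 1.77 (SE 0.31) in FSAP-deficient livers and was at -0.51 (adjusted p = 0.243) in WT livers. Its FSAP-deficient sham arrays read 4.73, 3.97 and 3.78, and the highest of them, replicate 1, is the sham array with Y-linked signal. Kmo, kynurenine monooxygenase, fell by 1.11 in FSAP-deficient and 0.91 in WT livers. Its call in WT livers was lost without WT sham replicate 3 or WT BDL replicate 1 or 3 (-0.75, -0.85 and -0.86). It was also lost with quantile normalization and with the authors' deposited values. The second Kmo probe fell by 1.00 in FSAP-deficient livers and was at -0.70 (adjusted p = 0.0672) in WT livers. Kynu, kynureninase, was at -0.50 (adjusted p = 0.0775) in FSAP-deficient livers and 0.10 (adjusted p = 0.739) in WT livers. It passed in FSAP-deficient livers without FSAP-deficient sham replicate 2 (-0.65) or FSAP-deficient BDL replicate 1 (-0.63), and its second probe fell there by 0.91.

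Both listed genes of histidine breakdown, Hal and Uroc1, fell in both genotypes. Hal, histidine ammonia lyase and a marker of periportal hepatocytes (10:92979135-92979194), stood at 3.43, 3.39 and 3.68 in FSAP-deficient BDL livers, 5.40, 5.02 and 5.39 in FSAP-deficient sham livers, 4.22, 3.20 and 3.99 in WT BDL livers and 5.40, 5.67 and 5.28 in WT sham livers. All 6 BDL arrays lay below all 6 sham arrays. Hal had a log2 change of -1.77, SE 0.25, adjusted p = 0.00033 in FSAP-deficient livers and of -1.65, SE 0.25, adjusted p = 0.000631 in WT livers, and its second probe fell by 2.25 in FSAP-deficient and 1.71 in WT livers. Uroc1, urocanate hydratase, the next enzyme, fell by 1.22 (SE 0.22) in FSAP-deficient and 1.15 (SE 0.22) in WT livers. The promoter of Hal is shown because it is the one of the 3 printed here with matches to the searched motifs, in capitals. From left to right they are a C/EBP match starting 150 bases before the transcript start, a glucocorticoid response element match starting 36 bases before it, and a reverse-strand TATA box match starting 28 bases before it that shares 1 base with the second. It covers chr10:93488518-93488817 on the plus strand of GRCm38.p6:
Hal: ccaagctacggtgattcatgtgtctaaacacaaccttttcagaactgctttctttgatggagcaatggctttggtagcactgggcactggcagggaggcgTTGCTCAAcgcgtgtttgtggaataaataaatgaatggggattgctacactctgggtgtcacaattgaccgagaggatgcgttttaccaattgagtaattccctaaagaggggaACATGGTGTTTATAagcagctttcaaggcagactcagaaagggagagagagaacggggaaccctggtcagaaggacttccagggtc

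Serine, glyoxylate and glycine enzymes did not share a direction in WT livers. Of 6 genes, 5 fell in FSAP-deficient livers (median -1.23), and in WT livers 2 fell and 1 rose (median -0.29). Agxt, alanine-glyoxylate aminotransferase (1:95041901-95041959), stood at 4.74, 4.91 and 5.0 in FSAP-deficient BDL livers, 6.94, 7.03 and 7.03 in FSAP-deficient sham livers, 4.95, 4.67 and 4.74 in WT BDL livers and 7.06, 7.23 and 7.13 in WT sham livers. The 6 BDL arrays lay close together in both genotypes, far below every sham array. Agxt had a log2 change of -2.12, SE 0.13, adjusted p = 5.29e-06 in FSAP-deficient livers, or 4.34-fold lower, and of -2.35, SE 0.13, adjusted p = 2.2e-06 in WT livers, or 5.11-fold lower. The genotype difference after BDL was 0.10, with a 95% interval of -0.19 to 0.38. Agxt2, a mitochondrial aminotransferase that also uses glyoxylate, fell by 0.51 in FSAP-deficient livers, a call lost without any of 5 single arrays (-0.38 to -0.52), and was at -0.32 (adjusted p = 0.179) in WT livers. The Agxt promoter, shown because Agxt had the largest fall seen in both genotypes, holds none of the 5 motifs and covers chr1:93134990-93135289 on the plus strand of GRCm38.p6:
Agxt: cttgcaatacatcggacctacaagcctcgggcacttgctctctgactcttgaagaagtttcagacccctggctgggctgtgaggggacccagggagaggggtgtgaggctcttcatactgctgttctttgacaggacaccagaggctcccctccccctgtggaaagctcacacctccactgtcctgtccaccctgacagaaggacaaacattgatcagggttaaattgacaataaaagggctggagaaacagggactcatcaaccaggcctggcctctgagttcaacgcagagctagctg

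Sds, serine dehydratase, a gluconeogenic enzyme of periportal hepatocytes (5:120933105-120933164), stood at 2.45, 3.79 and 2.88 in FSAP-deficient BDL livers, 4.75, 4.10 and 4.55 in FSAP-deficient sham livers, 5.29, 4.13 and 4.88 in WT BDL livers and 3.92, 4.26 and 3.60 in WT sham livers. All 3 FSAP-deficient BDL arrays lay below all FSAP-deficient sham and all WT BDL arrays, and WT BDL arrays overlapped with WT sham arrays. Sds fell in FSAP-deficient livers (-1.43, SE 0.38, adjusted p = 0.0121) and did not pass in WT livers (0.84, SE 0.38, adjusted p = 0.111), where it passed without WT BDL replicate 2 (1.16). Without the 3 arrays with Y-linked signal Sds was at -1.44 in FSAP-deficient livers and no longer passed (adjusted p = 0.0512). Sdsl, its neighbour on chromosome 5 (5:120908225-120908284), stood at 2.23, 3.22 and 3.32 in FSAP-deficient BDL livers, 3.00, 2.31 and 2.22 in FSAP-deficient sham livers, 4.63, 3.60 and 3.98 in WT BDL livers and 2.13, 2.21 and 2.00 in WT sham livers. The 3 WT BDL arrays were the highest of the 12, and the FSAP-deficient BDL and sham arrays overlapped. Sdsl rose 3.88-fold in WT livers (1.95, SE 0.34, adjusted p = 0.00149) and did not pass in FSAP-deficient livers (0.41, SE 0.34, adjusted p = 0.364).

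The glycine cleavage system, which yields a folate-bound carbon unit, was measured by 2 genes. Gldc, its glycine decarboxylase (19:30172983-30173042), stood at 2.48, 2.28 and 2.81 in FSAP-deficient BDL livers, 3.89, 3.32 and 3.47 in FSAP-deficient sham livers, 3.75, 3.58 and 3.5 in WT BDL livers and 3.82, 3.83 and 3.97 in WT sham livers. The 3 FSAP-deficient BDL arrays lay below the other 9. Gldc had a log2 change of -1.03, SE 0.18, adjusted p = 0.00145 in FSAP-deficient livers and of -0.26, SE 0.18, adjusted p = 0.303 in WT livers. Amt, the aminomethyltransferase, fell by 1.45 (SE 0.35) in FSAP-deficient and 1.36 (SE 0.35) in WT livers.

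**Figure D2:**
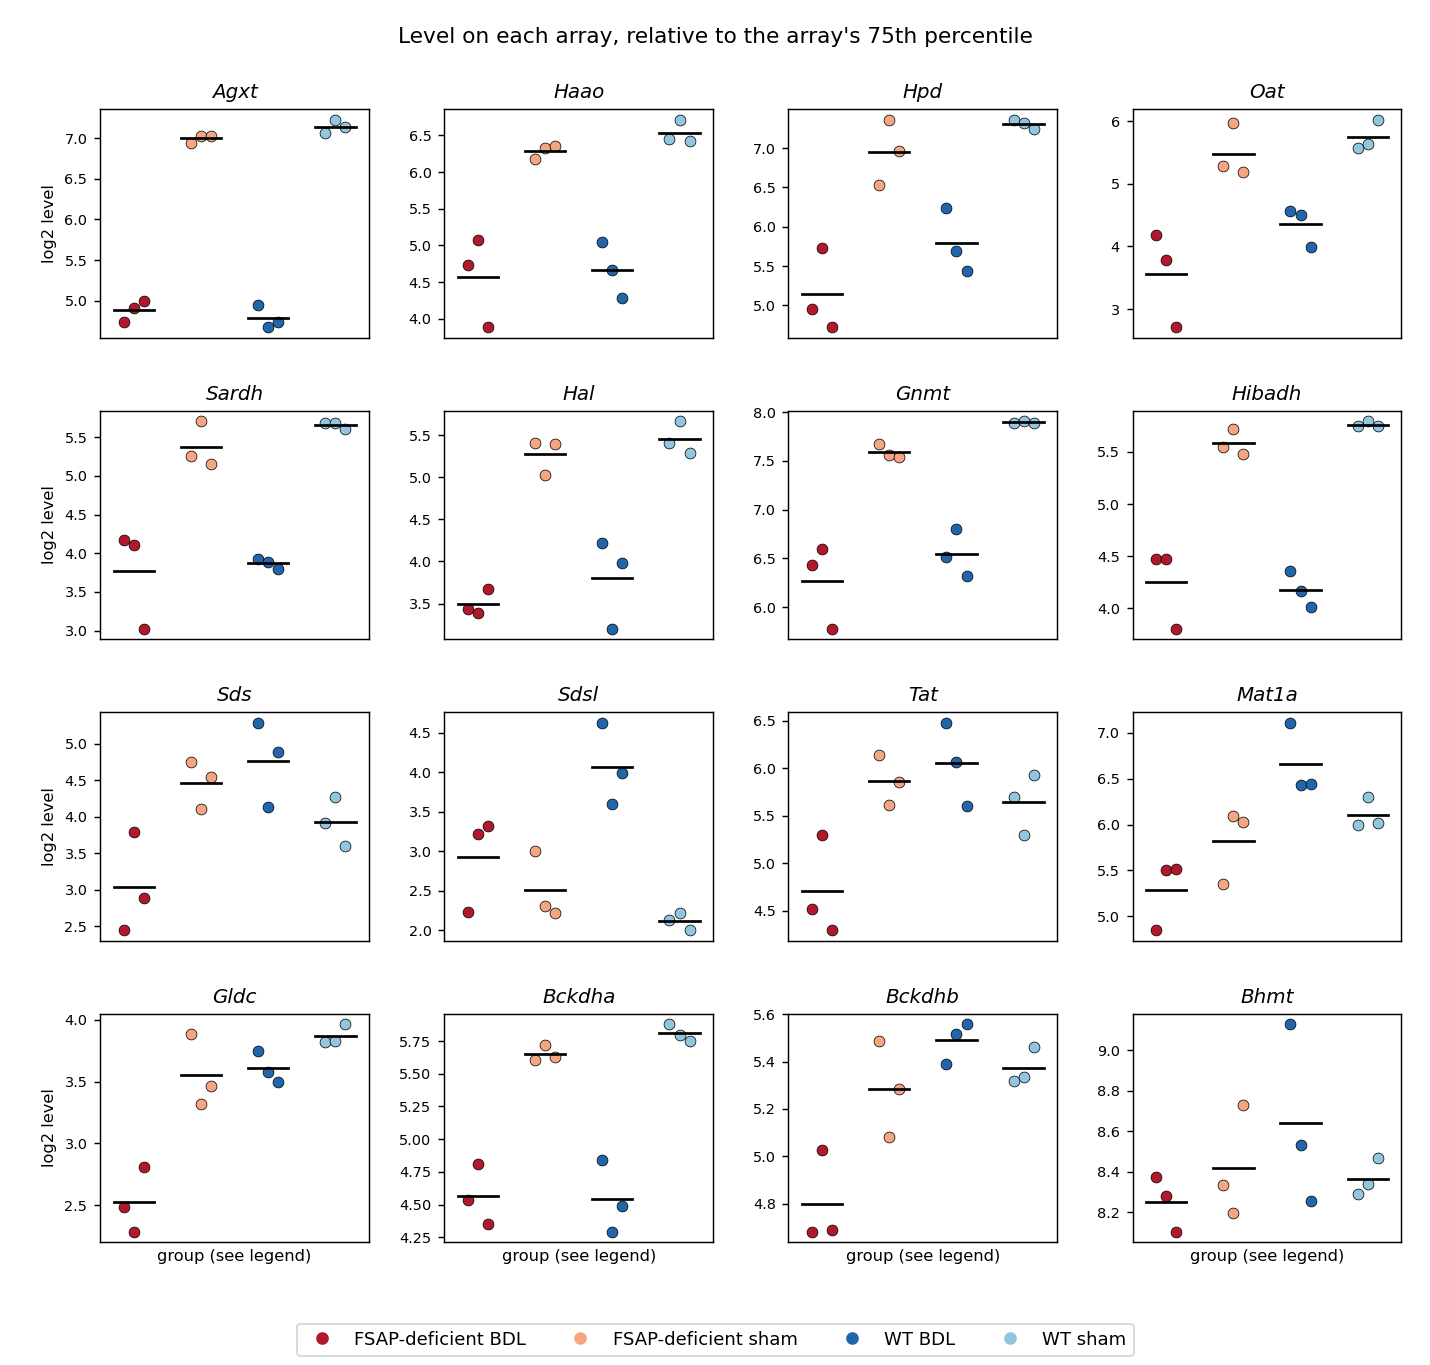
Log2 level of 16 genes on each array, relative to the 75th percentile of that array, with a point per array and a bar at the group mean, for FSAP-deficient BDL, FSAP-deficient sham, WT BDL and WT sham livers from left to right. Agxt, Haao, Hal and Hibadh separate BDL from sham in both genotypes, Sdsl is highest on the 3 WT BDL arrays, and Gldc is lowest on the 3 FSAP-deficient BDL arrays. Each panel has its own axis.

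In the methionine cycle and transsulfuration, 4 of 6 genes fell in FSAP-deficient livers (median -1.14) and 2 in WT livers (median -0.55). Gnmt, glycine N-methyltransferase, which disposes of surplus methyl groups (17:46862894-46863042), stood at 6.43, 6.60 and 5.78 in FSAP-deficient BDL livers, 7.67, 7.56 and 7.54 in FSAP-deficient sham livers, 6.51, 6.80 and 6.32 in WT BDL livers and 7.88, 7.91 and 7.89 in WT sham livers. The WT sham arrays were the tightest group and the highest, and both BDL groups lay below both sham groups. Gnmt had a log2 change of -1.32, SE 0.21, adjusted p = 0.00068 in FSAP-deficient livers and of -1.35, SE 0.21, adjusted p = 0.000725 in WT livers. Cbs, the first enzyme of transsulfuration, fell by 1.39 in FSAP-deficient and by 1.1 in WT livers, and its call in WT livers was lost without any of 8 single arrays (-0.82 to -1.15). Cth, the second, fell by 0.97 in FSAP-deficient livers and was at -0.61 (adjusted p = 0.0516) in WT livers, where it passed without WT BDL replicate 3 (-0.72) or without FSAP-deficient BDL replicate 1 or 3 (-0.61 in both cases).

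Mat1a, the hepatocyte enzyme that makes S-adenosylmethionine (14:41937140-41937199), stood at 4.85, 5.5 and 5.52 in FSAP-deficient BDL livers, 5.35, 6.09 and 6.03 in FSAP-deficient sham livers, 7.11, 6.43 and 6.44 in WT BDL livers and 6.0, 6.30 and 6.02 in WT sham livers. WT BDL arrays were the highest and FSAP-deficient BDL arrays among the lowest, with FSAP-deficient sham replicate 1 between them. Mat1a passed in neither genotype (-0.54, SE 0.27, adjusted p = 0.142 in FSAP-deficient livers and 0.56, SE 0.27, adjusted p = 0.14 in WT livers), and in FSAP-deficient livers it passed without FSAP-deficient sham replicate 1 (-0.77). Bhmt, which remethylates homocysteine with betaine, was at -0.17 (adjusted p = 0.584) in FSAP-deficient and 0.27 (adjusted p = 0.372) in WT livers, and with quantile normalization it rose by 0.47 in FSAP-deficient and 0.56 in WT livers.

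Ahcy, which splits S-adenosylhomocysteine, was the member with the largest fall in FSAP-deficient livers, and the probe used varied more among WT arrays than that of any other member. That probe (2:154885047-154885106) stood at 2.84, 2.05 and 3.52 in FSAP-deficient BDL livers, 5.19, 5.56 and 5.48 in FSAP-deficient sham livers, 5.31, 4.08 and 2.45 in WT BDL livers and 3.93, 5.25 and 4.16 in WT sham livers. WT BDL arrays spanned almost the whole range of the gene, with an SD of 1.43. Ahcy had a log2 change of -2.61, SE 0.63, adjusted p = 0.00817 in FSAP-deficient livers and of -0.50, SE 0.63, adjusted p = 0.587 in WT livers. The 2 dimmer Ahcy probes fell by 1.72 and 1.58 in FSAP-deficient livers and were at -0.57 (adjusted p = 0.0922) and -0.56 (adjusted p = 0.0969) in WT livers. Without the 3 arrays with Y-linked signal the brightest probe was at -2.0 in FSAP-deficient livers and no longer passed (adjusted p = 0.167).

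Choline-derived methyl groups are oxidized in mitochondria by Dmgdh and then Sardh, and both fell in both genotypes. Sardh, sarcosine dehydrogenase (2:27047412-27047471), stood at 4.17, 4.11 and 3.02 in FSAP-deficient BDL livers, 5.26, 5.71 and 5.15 in FSAP-deficient sham livers, 3.92, 3.89 and 3.80 in WT BDL livers and 5.68, 5.69 and 5.61 in WT sham livers. The 3 WT BDL arrays lay close together, whereas FSAP-deficient BDL replicate 3 was more than 1 log2 unit below the other 2. Sardh had a log2 change of -1.60, SE 0.27, adjusted p = 0.00113 in FSAP-deficient livers and of -1.79, SE 0.27, adjusted p = 0.000719 in WT livers. Dmgdh, dimethylglycine dehydrogenase, fell by 1.12 (SE 0.13) in FSAP-deficient and 0.87 (SE 0.13) in WT livers.

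Proline and ornithine breakdown fell at all 3 measured steps in both genotypes (median -1.66 in FSAP-deficient and -1.29 in WT livers). Oat, ornithine aminotransferase, known from pericentral hepatocytes (7:139749726-139749785), stood at 4.18, 3.79 and 2.71 in FSAP-deficient BDL livers, 5.29, 5.96 and 5.18 in FSAP-deficient sham livers, 4.57, 4.51 and 3.99 in WT BDL livers and 5.58, 5.64 and 6.02 in WT sham livers. FSAP-deficient BDL replicate 3 was the lowest array, and no BDL array reached a sham array. Oat had a log2 change of -1.92, SE 0.35, adjusted p = 0.00182 in FSAP-deficient livers and of -1.39, SE 0.35, adjusted p = 0.0123 in WT livers. Prodh, proline dehydrogenase, fell by 1.66 in FSAP-deficient and 1.08 in WT livers, and Aldh4a1, which finishes proline oxidation, fell by 1.06 in FSAP-deficient and 1.29 in WT livers.

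Branched-chain breakdown fell at 5 of 5 genes in FSAP-deficient livers (median -1.12) and at 4 of 5 in WT livers (median -1.27). Hibadh, hydroxyisobutyrate dehydrogenase of valine breakdown (6:52496381-52496440), stood at 4.48, 4.47 and 3.80 in FSAP-deficient BDL livers, 5.55, 5.72 and 5.48 in FSAP-deficient sham livers, 4.36, 4.16 and 4.02 in WT BDL livers and 5.74, 5.80 and 5.74 in WT sham livers. All 6 BDL arrays lay below all 6 sham arrays with a wide gap. Hibadh had a log2 change of -1.33, SE 0.19, adjusted p = 0.00037 in FSAP-deficient livers and of -1.58, SE 0.19, adjusted p = 0.000156 in WT livers. Ivd, which acts on the leucine branch, fell by 1.12 in FSAP-deficient and 0.84 in WT livers. Of the branched-chain ketoacid dehydrogenase, 3 subunits fell in FSAP-deficient livers and 2 in WT livers. Bckdha fell by 1.08 (SE 0.17) in FSAP-deficient and 1.27 (SE 0.17) in WT livers, and Dbt, its transacylase core, fell by 1.30 (SE 0.14) in FSAP-deficient and 1.42 (SE 0.14) in WT livers. Bckdhb, the partner of Bckdha in one enzyme component, fell by 0.48 (SE 0.15) in FSAP-deficient livers, a call lost without any of 4 single arrays (-0.38 to -0.49) or without the 3 arrays with Y-linked signal (-0.49), and was at 0.12 (adjusted p = 0.589) in WT livers. Under median scaling Bckdhb in WT livers was at -0.0025.

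Among 3 alanine and aspartate transaminases, 2 fell in FSAP-deficient livers (median -0.74) and 0 in WT livers (median -0.32, with 1 at an unadjusted p under 0.05). Got2, mitochondrial aspartate aminotransferase (8:98388339-98388398), stood at 4.53, 4.80 and 4.03 in FSAP-deficient BDL livers, 5.20, 5.28 and 5.12 in FSAP-deficient sham livers, 4.94, 4.77 and 4.51 in WT BDL livers and 5.31, 5.22 and 5.02 in WT sham livers. The groups differed by little, yet BDL and sham arrays did not overlap within a genotype. Got2 had a log2 change of -0.75, SE 0.20, adjusted p = 0.0129 in FSAP-deficient livers and of -0.44, SE 0.20, adjusted p = 0.113 in WT livers, where it passed without FSAP-deficient BDL replicate 3 (-0.44, adjusted p = 0.0478). Gpt, the cytosolic alanine aminotransferase, fell by 0.74 in FSAP-deficient livers, was at -0.32 (adjusted p = 0.302) in WT livers, and lost its call without FSAP-deficient sham replicate 2 (-0.70) or 3 (-0.76). Gpt2, its mitochondrial counterpart, was at 0.12 (adjusted p = 0.751) in FSAP-deficient and 0.02 (adjusted p = 0.967) in WT livers, and both values turned negative under median scaling (-0.03 in FSAP-deficient and -0.10 in WT livers).

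Between genotypes, 0 of 36 genes passed the limma test after BDL, where 0.215% of all tested genes did, 0 in sham livers (0.0154%) and 0 for the interaction of genotype and BDL (0.0102%). At an unadjusted p under 0.05 the counts were 13 after BDL (12.9% of all tested genes), 1 in sham livers (7.87%) and 8 for the interaction (13.7%). After BDL the difference was negative, lower in FSAP-deficient livers, for 33 of 36 genes, with a median of -0.33 beside -0.03 over all tested genes. Under median scaling the median was -0.44 beside -0.13. The median was -0.16 without FSAP-deficient BDL replicate 3, -0.50 without FSAP-deficient BDL replicate 2, -0.59 with a term for Y-linked signal and -0.79 without the 3 arrays that carry it. The groups did not overlap for 11 genes lower in FSAP-deficient livers (9.08% of all tested genes) and 0 higher (6.58%), the 11 being Tat, Hgd, Fah, Sds, Sdsl, Gldc, Mat1a, Cth, Dmgdh, Prodh and Bckdhb. In sham livers the median was -0.13, with no overlap for 9 lower (7.26%) and 1 higher (9.82%). With slide as a fixed block that median was 0.17. This value is linked only through WT BDL arrays. It rests on FSAP-deficient sham replicate 2 and WT BDL replicate 1, each alone of its group on its slide. These genotype comparisons use the same arrays as the BDL comparisons. No slide held both genotypes of the same surgery, so their comparison could not be made within a slide.

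The smallest adjusted p after BDL was that of Gldc, at -1.08 (SE 0.18, 95% interval -1.49 to -0.68, adjusted p = 0.0516). Gldc passed without FSAP-deficient sham replicate 1 (-1.08, adjusted p = 0.0366) or FSAP-deficient BDL replicate 3 (-1.23, adjusted p = 0.044), and its adjusted p ranged from 0.0204 to 0.649 over the alternatives. Mat1a stood at -1.37 (95% interval -1.97 to -0.78, adjusted p = 0.0806), Sds at -1.73 (-2.56 to -0.90, adjusted p = 0.101), Bckdhb at -0.69 (adjusted p = 0.101) and Tat at -1.35 (adjusted p = 0.107). Mat1a passed without FSAP-deficient sham replicate 1 (adjusted p = 0.0498). None passed for the interaction, whose most negative values were Sds at -2.27 (SE 0.53, adjusted p = 0.137), Ahcy at -2.11 (SE 0.90, adjusted p = 0.339) and Tat at -1.58 (SE 0.43, adjusted p = 0.159). For Agxt it was 0.24 (95% interval -0.17 to 0.64), for Haao 0.14 (-0.75 to 1.03) and for Hal -0.13 (-0.89 to 0.64). The Y-linked signal was present on 2 of the 3 FSAP-deficient BDL arrays and on 0 of 3 WT BDL arrays, and its part in these differences was not tested apart from the alternatives given at the end.

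**Figure D3:**
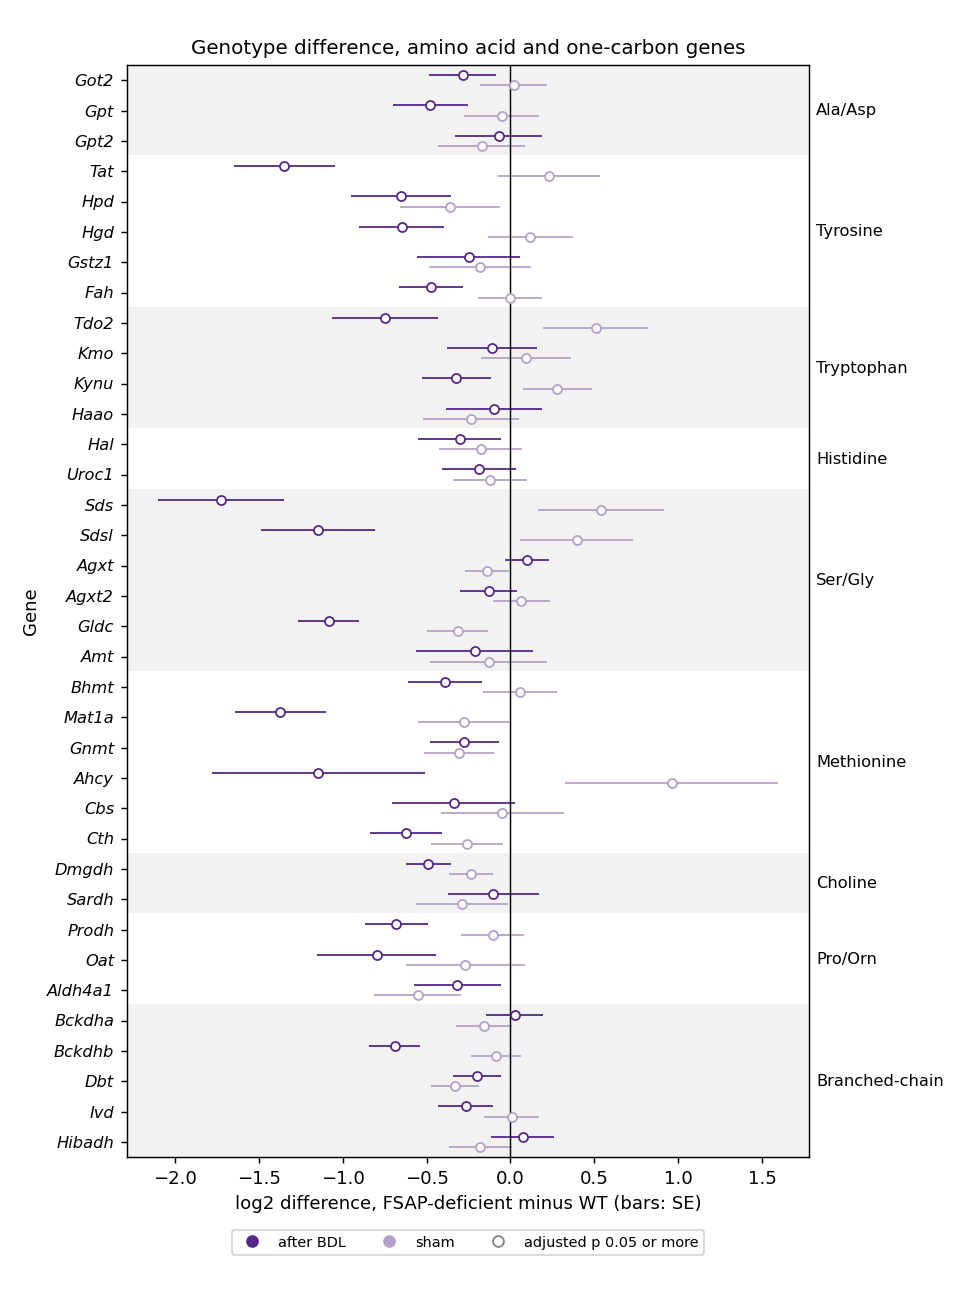
Log2 difference between FSAP-deficient and WT livers (FSAP-deficient minus WT) of the 36 genes, after BDL (dark) and in sham livers (light), with the SE as bars. All circles are open because no adjusted p was below 0.05. After BDL 33 of 36 differences lie left of 0, furthest for Sds at -1.73.

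FSAP-deficient BDL replicate 3 stood below the other arrays of its group. It was the lowest of the 3 for 28 of 36 genes and the lowest of all 12 arrays for 26. Averaged over the 36 genes, the deviation from the WT sham mean was -1.12, -0.98 and -1.54 on FSAP-deficient BDL arrays and lay between -0.08 and -0.01 on FSAP-deficient sham arrays. It was -0.51, -0.79 and -0.87 on WT BDL arrays. The hepatocyte markers gave -0.39, -0.28 and -0.62 on FSAP-deficient BDL arrays, 0.20, 0.18 and 0.22 on FSAP-deficient sham arrays and 0.29, -0.27 and -0.47 on WT BDL arrays, and the array lowest for the 36 genes in each BDL group was also the lowest for these. Without FSAP-deficient BDL replicate 3, 29 of the 36 genes fell in FSAP-deficient livers and 22 in WT livers. The median SD of the 36 genes was 0.42 in FSAP-deficient BDL livers, 0.15 in FSAP-deficient sham livers, 0.23 in WT BDL livers and 0.12 in WT sham livers, beside 0.29, 0.24, 0.24 and 0.16 over all tested genes.

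**Figure D4:**
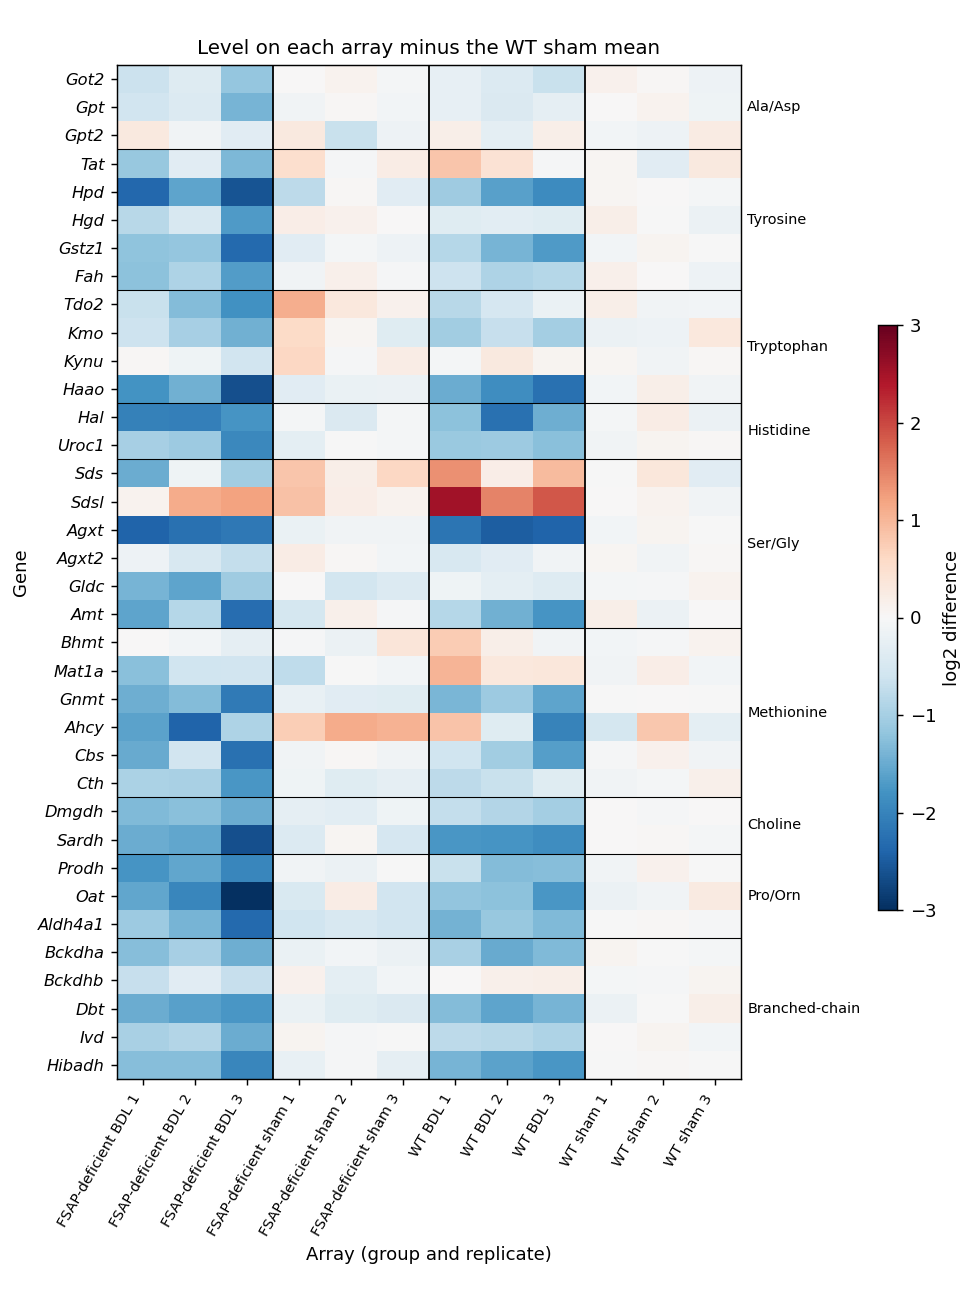
Log2 level of each of the 36 genes on each array minus the mean of the 3 WT sham arrays, as colour from -3 (blue) to 3 (red), with arrays in columns (FSAP-deficient BDL, FSAP-deficient sham, WT BDL, WT sham, replicates 1 to 3 each) and genes in rows by pathway. The third column, FSAP-deficient BDL replicate 3, is the lowest of the 12 arrays for 26 genes, and Sdsl is raised on all 3 WT BDL arrays.

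Other genes of the same pathways, 59 of 63 listed, were measured and tested. In FSAP-deficient livers 37 fell and 8 rose (median -1.05), and in WT livers 32 fell and 10 rose (median -0.87). Over all tested genes 22.8% fell and 16.2% rose in FSAP-deficient livers, and 17.7% fell and 15.2% rose in WT livers. The branched-chain steps outside the 36 genes fell in 13 of 15 in both genotypes. Of the 8 with the largest change among those past the threshold in both genotypes, 4 fell. Kyat1, a kynurenine aminotransferase, fell by 2.55 in FSAP-deficient and 2.08 in WT livers. Amdhd1, the histidine step after Uroc1, fell by 1.72 in FSAP-deficient and 2.39 in WT livers. Qdpr, which recycles the cofactor of phenylalanine hydroxylation, fell by 1.58 in FSAP-deficient and 2.15 in WT livers, and Ido2, a second tryptophan-opening dioxygenase, fell by 2.10 in FSAP-deficient livers and fell by 1.62 in WT livers. The other 4 rose. Psat1 and Phgdh, of serine synthesis, rose by 2.80 and 2.10 in FSAP-deficient and by 2.64 and 1.42 in WT livers, with Psat1 well above background on 1 of 3 FSAP-deficient sham and 2 of 3 WT sham arrays. Pycr1, which makes proline, rose by 1.61 in FSAP-deficient and 3.17 in WT livers, where 2 of 3 sham arrays were well above background. Aldh18a1, the entry to proline and ornithine synthesis, was at least 3.86-fold higher after BDL in FSAP-deficient livers, where no sham array was well above background, and rose by 1.72 in WT livers, where 1 of 3 sham arrays was. Some of the remaining rises are given here, named after their values were seen. Mtr rose in both genotypes and Mat2a in FSAP-deficient livers. Csad, of taurine synthesis, was at 0.81 (adjusted p = 0.142) in FSAP-deficient livers and rose by 3.83 in WT livers. Acmsd, which diverts tryptophan carbon away from NAD, was at 0.44 (adjusted p = 0.626) in FSAP-deficient livers and rose by 2.17 in WT livers. For the interaction of genotype and BDL, 0 of the 59 genes passed the limma test (smallest adjusted p = 0.111), where 0.0102% of all tested genes did. A rise called in WT livers alone is therefore no call between genotypes.

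Got1, cytosolic aspartate aminotransferase and the counterpart of Got2 (19:43574278-43574337), was the single gene of these pathways past the threshold between genotypes. Its levels were 3.78, 4.33 and 4.52 in FSAP-deficient BDL livers, 5.22, 4.91 and 5.65 in FSAP-deficient sham livers, 5.83, 6.20 and 6.01 in WT BDL livers and 5.71, 5.33 and 5.85 in WT sham livers. The 3 FSAP-deficient BDL arrays were the lowest of the 12, and WT BDL arrays overlapped with WT sham arrays. Got1 was 3.48-fold lower in FSAP-deficient than in WT livers after BDL (log2 difference -1.80, SE 0.25, adjusted p = 0.0337), fell by 1.05 (adjusted p = 0.00667) after BDL in FSAP-deficient livers and was at 0.38 (adjusted p = 0.261) in WT livers. The interaction was -1.43 (adjusted p = 0.141). The genotype difference kept its direction in all 25 alternatives (-1.49 to -2.63) and its call in 14, with adjusted p from 0.00421 to 0.384. It was lost with no filter on dim probes, with only the compared groups in the fit, with slide as a fixed or random block, with a term for Y-linked signal, without WT sham replicate 1, 2 or 3, WT BDL replicate 1 or FSAP-deficient BDL replicate 1, and without the arrays with Y-linked signal. Got1, Gldc and Habp2 all lie on chromosome 19, in mice backcrossed up to generation F3. The part of sequence linked to Habp2 in the differences of Got1 and Gldc was not tested.

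Genes marking zones of the lobule were set beside the enzymes. Of 6 pericentral genes, 5 fell in both genotypes, with Glul, glutamine synthetase, at -2.20 in FSAP-deficient and -1.81 in WT livers. Of 6 periportal genes, which include Hal and Sds, 6 fell in FSAP-deficient livers, and 3 fell and 1 rose in WT livers. The urea cycle enzyme Arg1, chosen here after its values were seen, was at -0.56 (adjusted p = 0.0301) in FSAP-deficient and 0.61 (adjusted p = 0.0228) in WT livers, with an interaction of -1.17 (adjusted p = 0.118). Female-biased liver genes had a median of -4.78 in FSAP-deficient livers, where 0 of 5 passed and 3 were at an unadjusted p under 0.05. In WT livers the median was -5.50 and 3 of 5 fell. These genes averaged -9.11, -1.06 and 0.06 from the WT sham mean on FSAP-deficient sham replicates 1, 2 and 3. Male-biased ones fell in 3 of 6 in FSAP-deficient and in 4 of 6 in WT livers. The summed level of the female-biased genes lay between 0.28 and 5.26 on FSAP-deficient BDL arrays, 0.204 and 177 on FSAP-deficient sham arrays, 11.9 and 36.2 on WT BDL arrays and 144 and 188 on WT sham arrays. That of the male-biased genes lay between 36.8 and 341 on FSAP-deficient BDL arrays, 119 and 631 on FSAP-deficient sham arrays, 11.6 and 25.6 on WT BDL arrays and 92.1 and 128 on WT sham arrays. Their part in the changes of the 36 genes was not tested.

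RefSeq promoters, from 250 bases before to 50 after the transcript start, were listed for 29 of the 36 genes. Sites outside this window were not searched. The motifs searched on both strands were TTGCNNAA for C/EBP, CAAAGTCCA for HNF4, the HNF1 consensus by its name, ACANNNTGT for the glucocorticoid response element and TATAAA for the TATA box. TTGCNNAA was in 3 of the 29 (Hgd, Hal and Agxt2) and in 10.8% of all promoters. ACANNNTGT was in 6 (Tdo2, Hal, Bhmt, Gnmt, Bckdhb and Ivd) and in 6.85% of all promoters. TATAAA was in 5 (Got2, Hgd, Tdo2, Hal and Agxt2) and in 13.6%, CAAAGTCCA in 1 (Agxt2) and in 0.475%, and the HNF1 consensus in 0 and in 0.14%. Of the 6 genes with the glucocorticoid motif, Hal, Gnmt and Ivd fell in both genotypes. Tdo2 and Bckdhb passed only in FSAP-deficient livers, and Bhmt passed in neither.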

How the data were processed

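Liver RNA of 12 mice in 4 groups of 3 was hybridised with Cy3 to one-colour Agilent arrays, 1 array per mouse, from 100 ng of total RNA with an integrity number of at least 7.2, per the labels' protocols. The deposited scanner files hold the processed signal intensity of each spot, already background-subtracted by the scanner software per the file headers. The authors' deposited table of log2 values served as an alternative; how it was made is not stated by the labels or headers. The mm9 probe positions are those of the file headers' annotation columns.

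Each array held 44397 spots for 39429 probes. Control spots and 98 to 193 outlier spots per array were left out, and 0 spots were saturated. Signal at the 75th percentile was 475 to 1202 across arrays, and 54.5% to 62.3% of spots were well above background. The number of arrays limits the precision. Signals were scaled to the 75th percentile of their array and put on the log2 scale, the brightest probe stood for a gene, and a gene was kept if 3 or more of the 12 arrays had it well above background (19531 genes). The scanner file of FSAP-deficient sham replicate 1 was joined to the others by probe name. Of all probes, 26412 were named through RefSeq accessions.

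Group means were fitted on all 12 arrays with limma 3.58.1 in R 4.3.3, with Benjamini-Hochberg adjustment at 0.05, and 8 residual and 2.69 prior degrees of freedom. All p-values are two-sided and set a difference against the spread between arrays within groups, pooled over the 4 groups and moderated over all tested genes. That spread holds mouse and slide together. The contrasts set BDL against sham within a genotype, set FSAP-deficient mice against WT mice within a surgery, and tested the interaction. The method was tested on simulated data. The 36 genes and the other lists were chosen with earlier results of these data known. Every member could be named, with values per array for those past the threshold between genotypes, the largest falls and rises, and the leading gene of each step. Other pathway genes were named if among the 8 largest BDL changes past the threshold in both genotypes, or past it between genotypes. After the values were seen, the levels of Tat, Sds, Mat1a and Gldc were added. Mtr, Mat2a, Csad and Acmsd were named in the same way. Alternatives concerned scaling, background, filter, probe choice, samples in the fit, slide, replicate number, Y-linked signal and each array left out. Promoters came from RefSeq on GRCm38.p6 and had no part in any test. The genome build of the probes differs from it, so the exon or UTR under a probe was not analysed here.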

Additional observations from a re-analysis of the deposited data

How the results depend on the processing

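Every member called after BDL, Sdsl included, kept its direction in that genotype under every alternative run. Counts moved most with slide as a fixed block, where 16 members fell in FSAP-deficient livers and 8 fell and 2 rose in WT livers. Fewer of all tested genes fell or rose with this block too, so these counts alone show no loss particular to the members. The comparison within a slide rests on a lone array in an arm of each genotype. The median change of the members was -1.21 in FSAP-deficient and -0.75 in WT livers with the block. Without it the median was -1.19 in FSAP-deficient and -0.86 in WT livers. With quantile normalization, and with the authors' deposited values, 1 rose in FSAP-deficient livers and 4 in WT livers. Bhmt turned from negative to 0.47 in FSAP-deficient livers with quantile normalization and to 0.46 with the deposited values. The cause was not tested. Between genotypes after BDL, 1 member passed with median scaling (Mat1a), 4 with normexp background correction (Tat, Sds, Mat1a and Gldc) and 1 with the filter on all arrays (Gldc). For the interaction, 1 passed with a term for Y-linked signal (Tdo2, -1.54) and 1 without the 3 arrays with that signal (Hgd, -1.41), an alternative chosen after seeing the data.

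Leaving out each array in turn gave 29 to 31 falls and 0 rises in FSAP-deficient livers, 18 to 22 falls and 1 to 2 rises in WT livers, and 0 to 2 members between genotypes after BDL. The second rise in WT livers was that of Sds without WT BDL replicate 2, and the 2 between genotypes were Gldc and Mat1a without FSAP-deficient sham replicate 1. Same-numbered arrays correlated between -0.20 and 0.19 in their deviations, and differently numbered arrays between -0.21 and 0.22. These values show no pairing by replicate number, but with 3 arrays per group they cannot exclude it. With the replicate block, 30 members fell and 0 rose in FSAP-deficient livers, 20 fell and 1 rose in WT livers, and 0 differed between genotypes or in the interaction. Median scaling put the median BDL change of all tested genes at -0.31 in FSAP-deficient and -0.15 in WT livers, where 75th-percentile scaling gave -0.16 and -0.03, and 4144 genes fell and 2324 rose in WT livers, where 3451 fell and 2969 rose before. With 3 mice per group, small differences between genotypes lie within the intervals given, and no slide held arrays of both genotypes for the same surgery.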
